A study of Mus musculus with 12 samples.

Results

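The 10 genes Pecam1, Cdh5, Kdr, Tek, Tie1, Vwf, Nos3, Selp, Vcam1 and Plvap, which mark endothelial cells or their activation, were taken by symbol from a table of 55885 genes measured by RNA-seq of whole heart tissue. The values were TPM, a transcript level scaled for gene length and to a fixed sum in each heart. All 10 genes were among the 13815 genes tested, which reached 1 TPM in 3 or more of the 12 hearts. Selp reached a TPM of 1 in 8 of 12 hearts and each of the other 9 genes in 12 of 12.

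The 12 hearts came from male mice, 8 weeks old, of strain C57BL/6 in the labels and C57BL/6J in the methods, and 3 hearts were sequenced in each of 4 groups of 6 mice. In the CDDP group, wild type mice received cisplatin (CDDP), a platinum anticancer drug, at 6 mg/kg into the peritoneum on days 1, 8 and 15. The Saline group held wild type mice without cisplatin, which the labels call untreated and the methods describe as given saline. The STING-/- group (Tmem173-/- in the labels) lacked the DNA-sensing adaptor STING and received no cisplatin, and the STING-/-+CDDP group was the same genotype with cisplatin at the same dose and days. Hearts were collected on day 22. The STING-/- line was bought from another supplier than the wild type mice, so genotype and supplier cannot be told apart, and the loss of STING affected all cells of the mouse and not only endothelium.

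Sting1, the gene that encodes STING, lay between 6.50 and 12.28 TPM in Saline hearts and between 2.87 and 5.96 TPM in STING-/- hearts. It lay between 5.62 and 22.1 TPM in CDDP hearts and between 3.37 and 4.67 TPM in STING-/-+CDDP hearts, so neither pair of groups overlapped, although the transcript was not absent. A pair of hearts stood apart. Saline heart 2 had a summed TPM of 39396 for 7 atrial genes (Nppa, Myl7 and others), against 317 to 14858 in the other hearts, and CDDP heart 1 had a summed TPM of 1133 for 8 neutrophil genes, against 5.40 to 93.8 in the others. TPM carry no read counts, so the depth of each heart is unknown. In whole tissue, fewer endothelial cells and less RNA per endothelial cell cannot be told apart.

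Endothelial cells line the vessels and the chambers of the heart. Pecam1 and Cdh5 encode adhesion molecules that join neighbouring endothelial cells. Kdr is the main signalling receptor for vascular endothelial growth factor A (VEGF-A), and Tek and Tie1 are the receptors of the angiopoietin system, which keeps vessels quiescent. Resting endothelium produces nitric oxide through Nos3. On activation it brings stored P-selectin (Selp) to its surface and induces Vcam1, which together slow and hold leukocytes. Vwf, the carrier of clotting factor VIII, is high in endocardium and veins, and Plvap forms the diaphragms of fenestrae and caveolae.

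Upstream sequence is shown for the receptors Kdr and Tek, because both stood lower in CDDP than in Saline hearts without overlap, and for Selp, because it varied most of the 10 genes. Of the 10 genes, 4 (Selp, Tek, Tie1 and Kdr) had an entry among the RefSeq promoter windows (GRCm38.p6). The Tie1 window (chr4:118489850-118490099) is not shown, because most of it lies within the gene, whose GENCODE start is at 118490061. The Kdr window overlaps its gene only at its last bases, from 75978456 against a GENCODE start at 75978458. Each line gives the 250 bases before the start that RefSeq uses for the window, 5′ to 3′ on the strand of the gene. Kdr and Tek also have RefSeq starts further upstream. Capitals mark GGAA on either strand (TTCC where the other strand holds it), the core letters that ETS factors such as Erg bind. The Kdr window is chr5:75978456-75978705 on the minus strand, the Tek window chr4:94739039-94739288 on the plus strand and the Selp window chr1:164115014-164115263 on the plus strand.
Kdr: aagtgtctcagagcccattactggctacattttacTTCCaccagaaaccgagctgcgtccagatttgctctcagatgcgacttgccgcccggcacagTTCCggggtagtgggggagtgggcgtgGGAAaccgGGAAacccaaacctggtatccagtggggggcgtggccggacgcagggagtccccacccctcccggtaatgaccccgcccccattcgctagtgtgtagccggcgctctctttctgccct
Tek: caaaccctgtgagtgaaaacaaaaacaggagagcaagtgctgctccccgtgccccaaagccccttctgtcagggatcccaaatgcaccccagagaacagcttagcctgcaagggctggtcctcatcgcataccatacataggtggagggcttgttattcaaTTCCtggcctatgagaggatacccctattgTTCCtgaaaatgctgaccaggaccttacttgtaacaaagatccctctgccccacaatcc
Selp: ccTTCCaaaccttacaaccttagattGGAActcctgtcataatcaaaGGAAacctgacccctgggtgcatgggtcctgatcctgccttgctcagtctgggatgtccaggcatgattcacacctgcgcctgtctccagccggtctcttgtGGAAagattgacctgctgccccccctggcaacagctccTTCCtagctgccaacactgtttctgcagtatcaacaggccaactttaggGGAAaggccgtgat
The Kdr window held 4 matches, the Tek window 2 and the Selp window 6, and the Tie1 window that is not shown held 7. The match nearest to the start ended 11 bases before it in Selp, 56 bases before it in Tek and 115 bases before it in Kdr. At least 1 match was present in 93.4% of 32851 windows of this length, with a median of 3 matches per window. The matches are a description of the letters and not of binding.

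Cisplatin in wild type mice was compared first, to ask how endothelial transcripts stood in hearts after CDDP. Kdr, Cdh5 and Tie1 were lower in CDDP than in Saline hearts and passed the test. The other 7 genes did not pass. Of all 13815 genes tested, 18.9% passed in this comparison, 10.4% as lower and 8.52% as higher, so that 3 of 10 genes lower stand beside a background of that size. The median log2 fold change was 0.07 over the 10 genes and -0.003 over all genes tested. Where 3 hearts do not overlap 3 others, the exact permutation p is 0.1. The share of all genes without overlap is not given here, so an absence of overlap is a description. The plot of each gene by heart shows the groups.

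**Figure D1:**
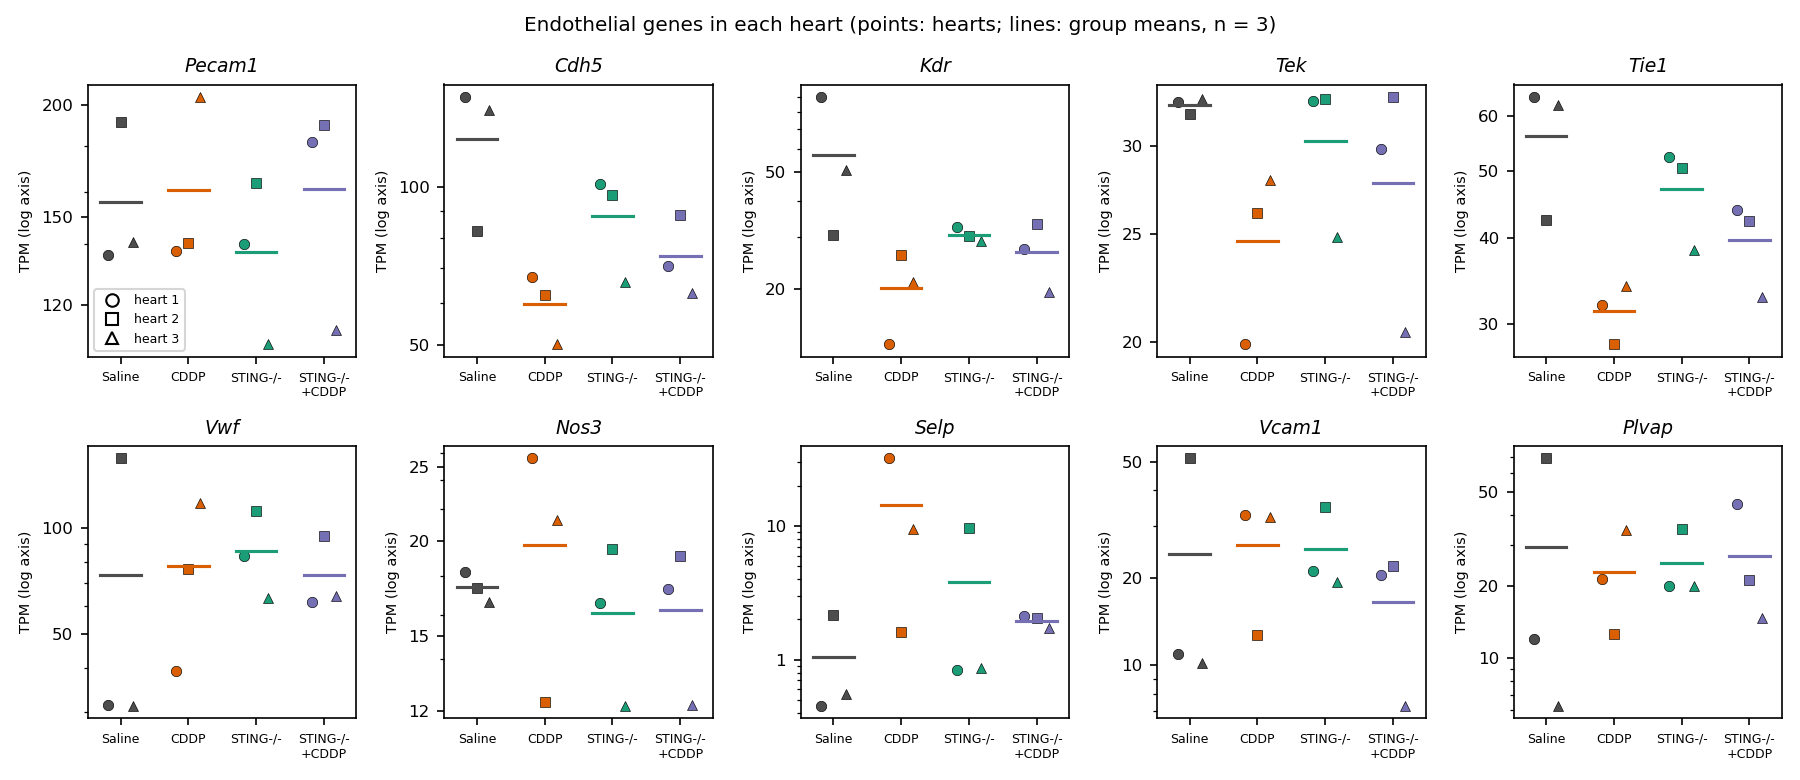
TPM (log axis) of the 10 endothelial genes in the 4 groups, with a symbol for each of the 3 hearts of a group and a line at the group mean. Cdh5, Kdr, Tie1 and Tek have all 3 CDDP hearts below all 3 Saline hearts, Vwf, Vcam1 and Plvap are highest in Saline heart 2, and Selp is highest in CDDP heart 1.

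Kdr (ENSMUSG00000062960, chr5:75932827-75978458, minus strand, GRCm38) had 90.4, 30.7 and 50.9 TPM in the 3 Saline hearts and 13.0, 26.2 and 21.2 TPM in the 3 CDDP hearts. The groups did not overlap, but Saline heart 2 was near the highest CDDP heart, and Saline heart 1 stood far above the other hearts. The fold change of TPM + 1 was -1.39 ± 0.35 on the log2 scale (SE, adjusted p = 0.0194, limma), with a 95% interval from -2.15 to -0.62. In STING-/- hearts Kdr had 32.7, 30.3 and 29.1 TPM and in STING-/-+CDDP hearts 27.4, 33.4 and 19.5 TPM. All 6 hearts without STING were thus within the range from the lowest CDDP heart to the middle Saline heart.

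Among 10 VEGF ligands and receptors, 5 were lower in CDDP and 0 were higher, with a median of -0.43. Besides Kdr these were the co-receptors Nrp2 (-1.26 ± 0.28, adjusted p = 0.0109) and Nrp1 (-1.08 ± 0.33, adjusted p = 0.0405), and the ligands Vegfa (-1.09 ± 0.32, adjusted p = 0.0361) and Vegfb (-0.56 ± 0.14, adjusted p = 0.0219). Vegfa had 78.4, 52.2 and 70.0 TPM in Saline hearts and 15.4, 42.6 and 42.2 TPM in CDDP hearts. The other VEGF receptors did not pass the test. Flt1, which binds VEGF-A with high affinity and signals weakly, had a log2 fold change of 0.40 ± 0.24, and Flt4, the receptor of lymphatic endothelium, one of 0.20 ± 0.26. The count of 5 fell to 0 in a fit of the 6 wild type hearts alone, to 2 without a filter on low values, to 1 without Saline heart 1, to 2 without Saline heart 3, and to 3 without CDDP heart 1, STING-/- heart 1 or STING-/-+CDDP heart 1.

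Tie1 (ENSMUSG00000033191, chr4:118471191-118490061, minus strand) had 63.9, 42.4 and 62.2 TPM in Saline hearts and 32.03, 28.1 and 34.0 TPM in CDDP hearts. All CDDP hearts were lower, and the log2 fold change was -0.80 ± 0.19 (adjusted p = 0.0151, limma). Its partner Tek (ENSMUSG00000006386, chr4:94739289-94874976, plus strand) had 32.9, 32.1 and 33.1 TPM in Saline hearts and 19.9, 26.1 and 28.0 TPM in CDDP hearts. The groups did not overlap here either, but the log2 fold change of -0.41 ± 0.20 missed the threshold (adjusted p = 0.168, 95% interval -0.83 to 0.02). Of the 6 tested genes of the angiopoietin and Tie system, only Tie1 passed, and it did not in a fit of the 6 wild type hearts alone. Angpt1, the activating ligand of Tek, had -0.01 ± 0.57, Angpt2, its context-dependent antagonist, had -0.16 ± 0.29, and Ptprb, the phosphatase that acts on Tek, had -0.66 ± 0.24 (adjusted p = 0.0721).

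The 2 junction genes went apart in CDDP hearts. Cdh5 (VE-cadherin, ENSMUSG00000031871, chr8:104101625-104144511, plus strand) had 149, 82.3 and 140.2 TPM in Saline hearts and 67.4, 62.3 and 50.1 TPM in CDDP hearts, with no overlap and a log2 fold change of -0.998 ± 0.24 (adjusted p = 0.0167, limma). Pecam1 (ENSMUSG00000020717, chr11:106654217-106750628, minus strand) had 136, 191 and 141 TPM in Saline hearts and 138, 140.3 and 204 TPM in CDDP hearts. These groups overlapped throughout. The log2 fold change of Pecam1 was 0.03 ± 0.24 (95% interval -0.49 to 0.56) and took both signs, from -0.15 without CDDP heart 3 to 0.19 without Saline heart 2, when 1 heart was left out. Pecam1 had the highest level of the 10 genes, with a median of 141 TPM over the 12 hearts. Across these hearts the log2 levels of Cdh5 and Tie1 had a Pearson r of 0.92 and those of Cdh5 and Pecam1 an r of -0.09, given as a description of hearts that share 4 groups. After the group means were removed, these values were 0.79 and -0.05.

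Of 12 tested endothelial junction genes, 3 were lower and 0 higher, with a median of -0.14. They were Cdh5, Afdn (afadin, which ties nectins to actin, -0.85 ± 0.25, adjusted p = 0.0344) and Jam2 (a tight junction molecule, -0.46 ± 0.13, adjusted p = 0.0313). The tight junction gene Cldn5 had 0.03 ± 0.45, and Esam, another endothelial adhesion molecule, had 0.14 ± 0.22. Neither passed the test. The count of 3 fell to 0 in a fit of the 6 wild type hearts alone, to 0 without Saline heart 1 and to 1 without Saline heart 3 or CDDP heart 1.

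The 3 calls depended on single hearts. Without Saline heart 1 none of Kdr, Cdh5 and Tie1 passed (adjusted p from 0.0665 to 0.0726), without Saline heart 3 Cdh5 (0.0593) and Tie1 (0.0538) were lost, without CDDP heart 1 Kdr was lost (0.0628), and without CDDP heart 3 Cdh5 was lost (0.0541). The log2 fold change stayed between -0.99 and -1.76 for Kdr, -0.84 and -1.27 for Cdh5 and -0.70 and -0.99 for Tie1 in these fits. Fitted to the 6 wild type hearts alone, the 3 genes kept the same fold changes but had adjusted p between 0.0569 and 0.0813.

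Endothelial genes outside the 10 moved in part in the same direction. Of 24 other pan-endothelial genes, 5 were lower in CDDP and 0 higher, with a median of -0.42. The largest falls were those of Myct1 (-1.73 ± 0.28, adjusted p = 0.00235) and Ushbp1 (-1.33 ± 0.32, adjusted p = 0.0155). The summed TPM of the 24 genes lay between 1125 and 1169 in Saline hearts and between 834 and 870 in CDDP hearts, without overlap. With the mean log2 level of these 24 genes as a covariate, Kdr, Cdh5 and Tie1 had log2 fold changes of -0.92, -0.55 and -0.44 and did not pass (adjusted p from 0.259 to 0.277). This covariate lay between 4.91 and 5.02 in Saline hearts and between 4.44 and 4.57 in CDDP hearts, so the fit separates it poorly from cisplatin. The SE of Kdr rose from 0.35 to 0.46, and the genes passing among all tested fell from 2610 to 474. The count of 5 fell to 1 (Myct1) in a fit of the 6 wild type hearts alone and to 3 without a filter on low values. Without Saline heart 1, or without Saline heart 3, it fell to 1, without CDDP heart 3 it fell to 2, and without CDDP heart 1 to 3.

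Among the vascular lists the capillary list had the lowest median. The lists were chosen with earlier results of these data known, so this rank is a description. Of 14 genes listed for capillary endothelium, 7 were lower in CDDP and 0 higher, beside 10.4% of all genes tested that were lower. The median was -1.21 and all 14 estimates were negative. Levels are those of whole tissue, and the part of other cells in them was not tested. Aplnr, the apelin receptor, had 58.6, 7.30 and 20.4 TPM in Saline hearts and 0.37, 0.52 and 1.24 TPM in CDDP hearts, and its log2 fold change was -3.72 ± 0.53 (adjusted p = 0.00145). Rbp7, a retinol binding protein of heart capillaries, had 48.9, 40.8 and 95.1 TPM in Saline hearts and 7.32, 13.9 and 8.60 TPM in CDDP hearts (-2.46 ± 0.31, adjusted p = 0.000935). Kdr is one of the 7. A fit of the 6 wild type hearts alone left 4 of the 14 genes lower, and the pan-endothelial covariate left 2, Aplnr and Rbp7. Leaving out any 1 heart left between 5 and 9 of the 14 genes lower, and Aplnr, Rbp7, Tcf15, Fabp4 and Cd300lg were among them each time.

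**Figure D2:**
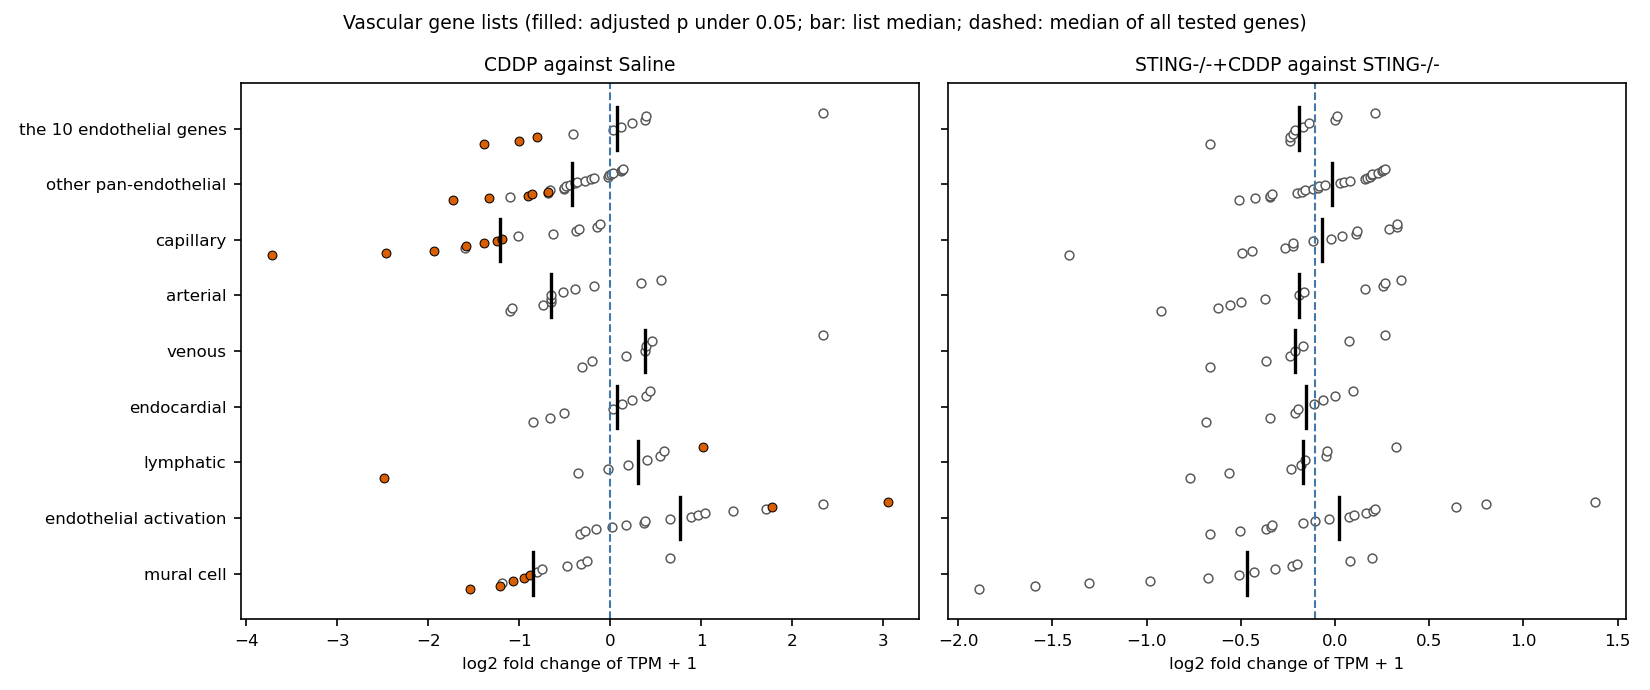
log2 fold change of TPM + 1 (x axis) of the genes of 9 vascular lists (rows) in CDDP against Saline hearts (left) and in STING-/-+CDDP against STING-/- hearts (right). Filled points passed the test, bars are list medians and the dashed line is the median of all tested genes. In wild type hearts the capillary list has a median of -1.21 with 7 filled points, and in STING-/- hearts a median of -0.07 with 0. Of all genes tested, 18.9% passed on the left and 0.934% on the right, and no capillary gene passed the interaction between genotype and cisplatin.

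The other vessel types showed few calls in CDDP against Saline. None of 11 arterial, 7 venous and 8 endocardial genes passed the test, with medians of -0.65, 0.38 and 0.08. The venous list includes Vwf, Selp and Vcam1, and the endocardial list Vwf and Plvap. Unadjusted p-values were under 0.05 for 4689 of all genes tested in this comparison. Mural cells, the pericytes and smooth muscle around the vessels, had 5 of 12 genes lower and 0 higher (median -0.84), among them the pericyte genes Vtn (-1.54 ± 0.37, adjusted p = 0.0157) and Rgs5 (-1.21 ± 0.24, adjusted p = 0.00602). This count fell to 2 in a fit of the 6 wild type hearts alone and to 2 without a filter, to 1 without CDDP heart 1 or Saline heart 1, and to 3 without Saline heart 3, STING-/- heart 2, STING-/-+CDDP heart 1 or STING-/-+CDDP heart 3. Genes of other cells were lower too, 9 of 13 macrophage genes, 4 of 10 fibroblast genes and 5 of 5 tested erythroid genes. With the pan-endothelial covariate, which did not overlap between Saline and CDDP hearts, these counts were 2, 1 and 2.

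The erythroid genes (among them alpha and beta globins and Alas2, the first enzyme of heme synthesis in red cells) had the lowest median of all lists, -4.87. Their summed TPM was 6815, 4146 and 9317 in Saline hearts and 1271, 141 and 42.0 in CDDP hearts, without overlap. It was 1266, 1466 and 264 in STING-/- hearts and 101, 81.9 and 311 in STING-/-+CDDP hearts. Saline hearts 1 and 3 had the highest erythroid sums and also the highest Cdh5, Kdr and Tie1 of the 12 hearts. Globin genes are near-identical copies that can share reads. The part of red cells, macrophages and fibroblasts in the values of the endothelial genes was not tested.

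Nos3 (ENSMUSG00000028978, chr5:24364810-24384474, plus strand) did not follow the lower receptors. It had 18.2, 17.4 and 16.7 TPM in Saline hearts and 25.6, 12.3 and 21.3 TPM in CDDP hearts. The Saline hearts lay close together and the CDDP hearts lay on both sides of them, and the log2 fold change was 0.12 ± 0.26 (95% interval -0.45 to 0.68). Of 13 tested genes around nitric oxide, 4 were lower and 0 higher. They were Cav1, which encodes the caveolin that holds the enzyme inactive (-1.10 ± 0.33, adjusted p = 0.0386), Ddah1 and Ddah2, which break down an inhibitor of nitric oxide synthases (-1.03 ± 0.18 and -0.96 ± 0.25, adjusted p = 0.00335 and 0.0225), and Prkg1, the cGMP-dependent kinase downstream (-0.94 ± 0.24, adjusted p = 0.0220). In a fit of the 6 wild type hearts alone, and without a filter, the count of 4 was 1 (Ddah1), without Saline heart 2 it was 1, without CDDP heart 1 it was 1, and without Saline heart 1 it was 2. Ddah1 was low in all hearts, at most 2.42 TPM. Atg9b, which overlaps Nos3 on the other strand, was at most 0.78 TPM. Whether reads were counted by strand is not given in the sources used here.

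Vwf, Plvap and Vcam1 varied more within groups than between them. Vwf (ENSMUSG00000001930, chr6:125546774-125686679, plus strand) had 31.4, 158 and 31.3 TPM in Saline hearts and 39.2, 76.8 and 118 TPM in CDDP hearts, with a log2 fold change of 0.39 ± 0.56 (adjusted p = 0.671). Plvap (ENSMUSG00000034845, chr8:71497765-71511752, minus strand) had 12.04, 69.4 and 6.27 TPM against 21.6, 12.7 and 34.7 TPM (0.24 ± 0.70, adjusted p = 0.844). Saline heart 2 held the highest value of all 12 hearts for both. Gtpbp3, which overlaps Plvap on the other strand, lay between 5.02 and 9.87 TPM.

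Vcam1 (ENSMUSG00000027962, chr3:116109949-116129688, minus strand) had 10.96, 51.3 and 10.2 TPM in Saline hearts and 32.7, 12.8 and 32.2 TPM in CDDP hearts (0.38 ± 0.60, adjusted p = 0.702). It too was highest in Saline heart 2. The 7 atrial genes summed to 317, 39396 and 346 TPM in the 3 Saline hearts and to 3831, 881 and 14858 TPM in the 3 CDDP hearts. In STING-/- hearts these sums were 3078, 12971 and 9081 TPM, and in STING-/-+CDDP hearts 9103, 953 and 346 TPM. The 3 hearts with the highest atrial sums, Saline 2, CDDP 3 and STING-/- 2, were also the 3 with the highest Vwf.

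The log2 fold changes of these 3 genes moved with Saline heart 2 and with the atrial genes. Without Saline heart 2 they were 1.15 for Vwf, 1.19 for Plvap and 1.10 for Vcam1 (adjusted p = 0.0613, 0.114 and 0.135). With the mean log2 level of the atrial genes as a covariate they were -0.01, -0.38 and -0.10. Kdr, Cdh5 and Tie1 had -1.22, -0.85 and -0.74 with this covariate and passed (adjusted p = 0.0226, 0.0127 and 0.0191). With the group means removed, their Pearson r with the atrial genes was -0.54, -0.71 and -0.42. For Vwf, Plvap and Vcam1 it was 0.78, 0.96 and 0.88. Saline hearts 1 and 3, highest in Kdr, Cdh5 and Tie1, had the lowest mean log2 atrial levels, 2.55 and 2.35. Saline heart 2 and CDDP heart 1 were also both left out, a choice made after the data were seen. Vwf was then higher in CDDP (1.57, adjusted p = 0.00755), and the count of genes passing rose to 4 with Kdr, Cdh5 and Tie1. Over all genes, 2674 passed and 1757 of these were higher, against 2610 and 1177 with all hearts. The median log2 fold change over all genes moved from -0.003 to 0.16, so the rise of Vwf stands beside a general upward shift. With both hearts left out, 3 of 8 endocardial genes were higher, Vwf itself among them. How much tissue of each chamber a sample held was not given, and its part in these values was not tested beyond these fits.

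**Figure D3:**
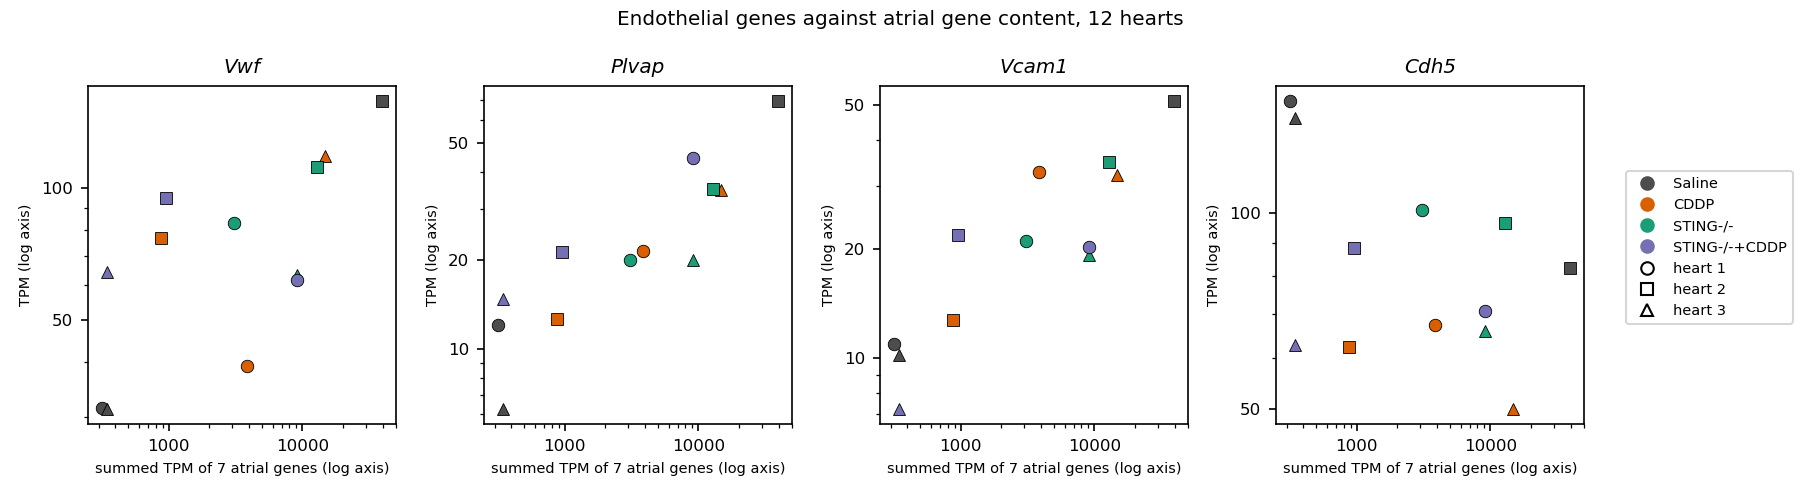
TPM of Vwf, Plvap, Vcam1 and Cdh5 (y axes, log) against the summed TPM of 7 atrial genes (x axes, log) in the 12 hearts, coloured by group with a symbol for the heart number. Saline heart 2, at an atrial sum of 39396, has the highest Vwf, Plvap and Vcam1, while the highest Cdh5, 149 TPM, is in Saline heart 1 at an atrial sum of 317.

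Selp (ENSMUSG00000026580, chr1:164115264-164150026, plus strand) was the lowest of the 10 genes, with a median of 1.89 TPM over the 12 hearts, and the most uneven. It had 0.45, 2.15 and 0.55 TPM in Saline hearts and 32.1, 1.61 and 9.53 TPM in CDDP hearts. CDDP hearts 1 and 3 were above all Saline hearts and CDDP heart 2 was within them. The log2 fold change was 2.34 ± 0.83 and missed the threshold (adjusted p = 0.0722, limma, 95% interval 0.51 to 4.16). Without CDDP heart 2 it was 3.28 and passed (adjusted p = 0.0138), without CDDP heart 1 it was 1.45 (adjusted p = 0.223), and without STING-/- heart 2, which had 9.66 TPM beside 0.84 and 0.87 TPM, it kept its fold change and passed (adjusted p = 0.0455).

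In CDDP heart 1 some other genes of activated endothelium and of blood cells were high together. E-selectin (Sele), made by activated endothelium, had 22.8 TPM there and at most 2.90 TPM in the other 11 hearts. Icam1, a leukocyte adhesion molecule, had 105 TPM there and at most 36.4 TPM elsewhere. Not all activation genes stood out there. Vcam1 had 32.7 TPM in CDDP heart 1 and 51.3 TPM in Saline heart 2, and F3 and Thbd had their highest values outside the CDDP group. P-selectin is also stored in platelets. Itga2b, a platelet integrin, had 16.8 TPM in CDDP heart 1 and at most 2.43 TPM in the others, and the 12 platelet genes together had 216 TPM against 28.7 to 96.0 TPM. The neutrophil gene S100a8 had 316 TPM there and at most 22.5 TPM elsewhere, the highest of these in STING-/- heart 2, which also had the highest Selp after CDDP heart 1. The 13 macrophage genes had a summed TPM of 155.5 in CDDP heart 1, the lowest of the 12 hearts. None of the 4 tested platelet genes or of the 6 tested neutrophil genes passed in CDDP against Saline. The part of these cells in the Selp value was not tested.

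**Figure D4:**
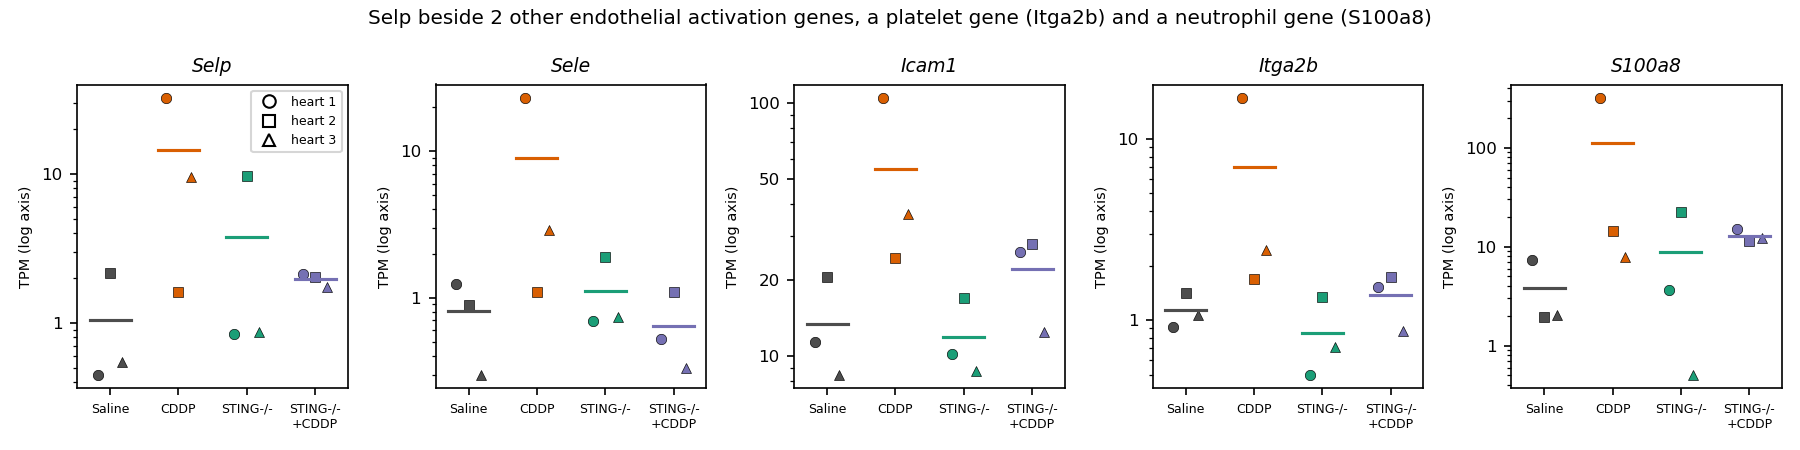
TPM (log axis) of Selp, the activation genes Sele and Icam1, the platelet gene Itga2b and the neutrophil gene S100a8 by group, with a symbol for each heart and a line at the group mean. CDDP heart 1 is the highest of all 12 hearts for all 5 genes, with 32.1 TPM of Selp and 316 TPM of S100a8.

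Of 16 endothelial activation genes, Selp and Vcam1 included, 2 were higher in CDDP and 0 lower, with a median of 0.77. They were Lrg1, a secreted glycoprotein also made by neutrophils and liver (3.05 ± 0.63, adjusted p = 0.00789), and Icam1 (1.77 ± 0.50, adjusted p = 0.0302). Lrg1 had 18.1, 38.6 and 45.8 TPM in Saline hearts and 982, 157 and 129 TPM in CDDP hearts. Icam1 had 11.4, 20.6 and 8.49 TPM against 105, 24.6 and 36.4 TPM. Both were higher in all CDDP hearts, although the highest values were those of heart 1. In a fit of the 6 wild type hearts alone, and with the pan-endothelial covariate, 0 of the 16 passed. Without a filter on low values or without CDDP heart 1 the count was 1, and without Saline heart 1 or 3 it was also 1, while without Saline heart 2 and without STING-/- heart 2 it was 4 and without CDDP heart 2 it was 5.

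STING-/-+CDDP hearts were compared with CDDP hearts to ask whether endothelial transcripts differed by genotype under cisplatin. None of the 10 genes passed, beside 1.22% of all genes tested, and 2737 genes had an unadjusted p under 0.05. Among the 10 the smallest unadjusted p was that of Selp. Selp had 2.12, 2.04 and 1.73 TPM in STING-/-+CDDP hearts, within the range of the CDDP hearts, and a log2 fold change of -1.71 ± 0.83 (adjusted p = 0.280, 95% interval -3.54 to 0.11). Kdr had 0.42 ± 0.35, Tie1 0.32 ± 0.19 and Cdh5 0.30 ± 0.24, with intervals of -0.35 to 1.18, -0.09 to 0.74 and -0.24 to 0.83. The median over all genes tested was -0.09 in this comparison, and rescaling of the hearts by the median of ratios moved it to 0.002.

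In the same comparison all 14 capillary genes had positive estimates, with a median of 0.62. Of these, 1 passed, beside 1.22% of all genes tested. The reference is the same CDDP hearts in which these genes were low against Saline. The positive estimates are therefore not independent of that comparison. Rbp7 had 25.0, 33.6 and 33.4 TPM in STING-/-+CDDP hearts, above all CDDP hearts, and a log2 fold change of 1.57 ± 0.31 (adjusted p = 0.0444). It passed without Saline heart 2, Saline heart 3 or CDDP heart 2, and not without any of the other 9 hearts. Cd300lg, a mucin of capillary endothelium, had 52.0, 69.0 and 62.3 TPM against 13.0, 41.5 and 22.3 TPM, and missed the threshold (1.36 ± 0.33, adjusted p = 0.0629).

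STING-/- hearts were compared with Saline hearts as the baseline of genotype, and none of the 10 genes passed, beside 0.0724% of all genes tested and 510 genes with an unadjusted p under 0.05. Kdr had -0.75 ± 0.35 and Cdh5 -0.47 ± 0.24, each with an adjusted p of 1. Cdh5 had 101, 96.6 and 66.0 TPM in STING-/- hearts and Tie1 had 52.3, 50.4 and 38.4 TPM. For both genes STING-/- hearts 1 and 2 were within the Saline range and heart 3 was below it. The intervals ran from -1.52 to 0.02 for Kdr and from -0.999 to 0.07 for Cdh5.

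Cisplatin was also compared within the STING-/- genotype. None of the 10 genes passed in STING-/-+CDDP against STING-/-, beside 0.934% of all genes tested and 1860 genes with an unadjusted p under 0.05. The log2 fold changes lay between -0.66 ± 0.60 for Vcam1 and 0.21 ± 0.24 for Pecam1, around a median of -0.19 for the 10 genes and -0.11 for all genes. Cdh5 had 70.7, 88.4 and 62.8 TPM in STING-/-+CDDP hearts and Tie1 43.9, 42.3 and 32.9 TPM. Kdr had -0.22 ± 0.35 (95% interval -0.99 to 0.55), Cdh5 -0.24 ± 0.24 (-0.77 to 0.30) and Tie1 -0.24 ± 0.19 (-0.66 to 0.18). The plot of fold changes sets the 4 comparisons side by side.

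**Figure D5:**
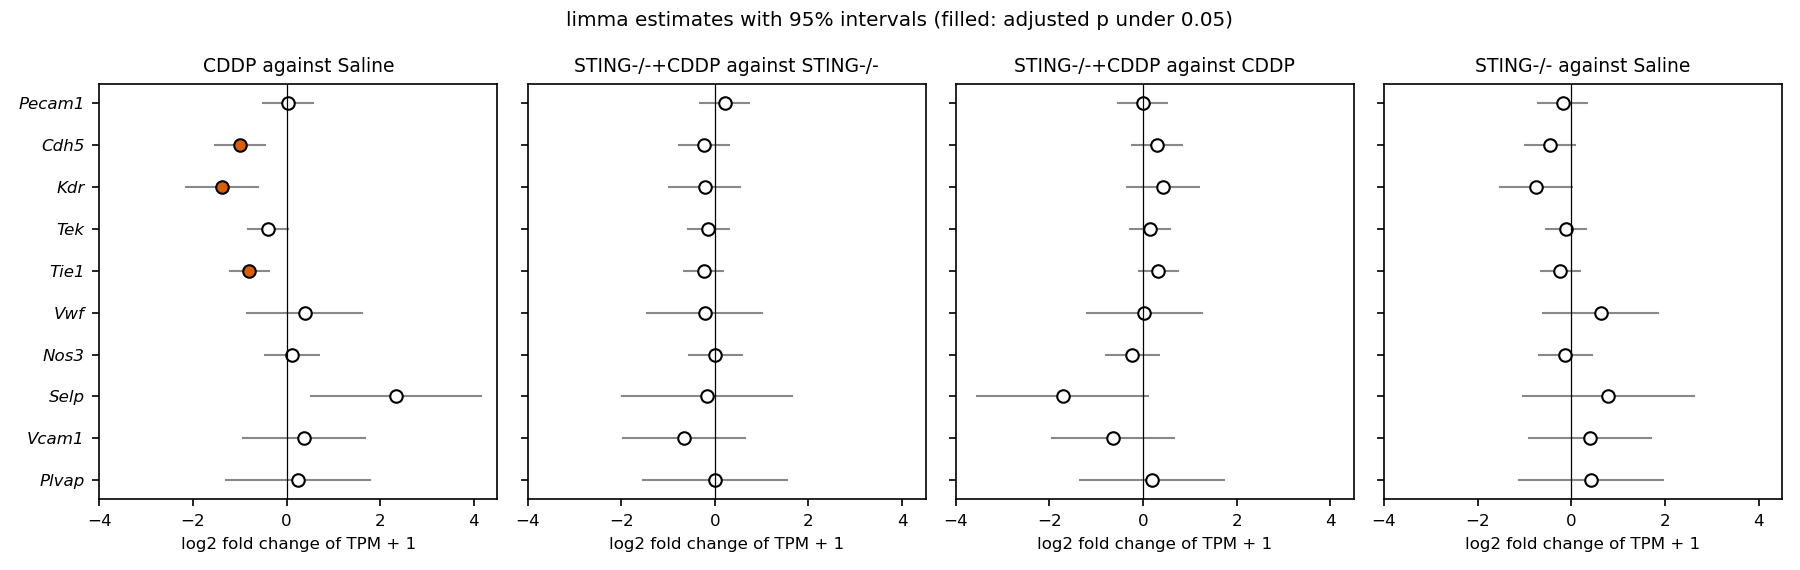
log2 fold change of TPM + 1 (x axis) of the 10 endothelial genes with 95% intervals from limma in 4 comparisons, filled where the adjusted p was under 0.05. Kdr (-1.39), Cdh5 (-0.998) and Tie1 (-0.80) are filled in CDDP against Saline, and no gene is filled in the other 3 comparisons.

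The difference between the genotypes in the change with cisplatin was tested as an interaction. None of the 10 genes passed, beside 0.00724% of all genes tested (1 gene) and 1615 genes with an unadjusted p under 0.05, so the calls in wild type hearts are not shown to differ from the values in STING-/- hearts. Kdr had an interaction of 1.16 ± 0.50 (adjusted p = 0.399), Cdh5 one of 0.76 ± 0.34 (adjusted p = 0.423), Tie1 one of 0.56 ± 0.27 (adjusted p = 0.446) and Selp one of -2.50 ± 1.18 (adjusted p = 0.440). All 14 capillary genes had positive estimates with a median of 1.08, and none passed. These comparisons share hearts, so their values are not independent.

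Averaged over the genotypes, cisplatin went with lower Kdr (-0.80 ± 0.25, adjusted p = 0.0416), Cdh5 (-0.62 ± 0.17, adjusted p = 0.0280) and Tie1 (-0.52 ± 0.14, adjusted p = 0.0205). The average reuses the wild type hearts, where these log2 fold changes were -1.39, -0.998 and -0.80. Within STING-/- they were -0.22, -0.24 and -0.24 and none passed. The average thus does not show a fall in each genotype. The other 7 genes did not pass, beside 19.8% of all genes tested that passed and 12.6% that passed as lower. None of the 3 genes passed without Saline heart 1, STING-/- heart 1 or STING-/-+CDDP heart 3, and only Tie1 passed without Saline heart 3, CDDP heart 3, STING-/- heart 2 or STING-/-+CDDP heart 1. Kdr was also lost without CDDP heart 1 or STING-/- heart 3, and Selp passed as well without CDDP heart 2.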

How the data were processed

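RNA-seq of heart tissue was taken from 12 mice, 3 in each group, grouped by the genotype and treatment in the labels. The table deposited by the authors holds the TPM of each gene in each heart, to 2 decimals. The submitters' processing notes name fastp, HISAT, RSEM and the build GRCm38.p5 without versions, the labels state that RNA was extracted with TRIzol and treated with DNase I, and the methods that a company did the sequencing. The deposited TPM columns summed to between 999999 and 1000001, carry no depth, and depend on the other genes of the same heart, such as the mitochondrially encoded genes (18.8% to 27.6% of the sum). The authors' 4 group means were left out. The members and gene lists were chosen with earlier results of these data known. Nothing states whether the mice of a group were littermates or were handled in batches.

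Values were taken as log2(TPM + 1), which understates the change of low genes such as Selp. The fit took the 13815 genes that reached 1 TPM in 3 or more hearts. A linear model with 1 coefficient per group was fitted to all 12 hearts with limma 3.58.1 in R 4.3.3 (eBayes with a trend, 8 residual degrees of freedom, median SE of a log2 fold change 0.216), and p-values were adjusted over the 13815 genes by the Benjamini-Hochberg method. Tests were two-sided with a threshold of 0.05 on the adjusted p, and every adjusted p in the text is from this procedure. The model was tested on simulated data with known changes. Alternatives changed the pseudocount, the filter, the hearts in the fit, the scaling, the variance trend, a replicate block, and a covariate for pan-endothelial or atrial genes. Fits that leave out a heart keep 2 hearts in its group. All 10 genes are named, and from each other list up to 2 of the largest rises and falls that passed, with genes of known role beside them that were chosen after their values were seen. Genes with the most similar pattern were ranked by Pearson r over the 12 hearts. Positions are from GENCODE M21 (GRCm38), matched by gene identifier (10 of 10). Motifs were searched on both strands with Python 3.11.15, and figures were drawn with matplotlib 3.10.9.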

Additional observations from a re-analysis of the deposited data

How the results depend on the processing

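The count of the 10 genes that passed in CDDP against Saline, 3 as reported, was 0 in a fit of only the 6 hearts compared and 0 with the other pan-endothelial genes as a covariate, and ranged from 0 to 4 when 1 heart was left out. For cisplatin averaged over genotypes, also 3, it was 1 without a filter on low values, 1 with TPM rescaled by the median of ratios and 0 with the pan-endothelial covariate, and ranged from 0 to 4 when 1 heart was left out. The cause was not tested. Without a filter on low values Kdr missed the threshold in CDDP against Saline (adjusted p = 0.0508), and Rbp7 and Ccl21a in STING-/-+CDDP against CDDP. In the other 4 comparisons the count of the 10 genes that passed was 0 under every alternative. No called fold change of the 10 genes reversed. Counts over all genes moved too. In CDDP against Saline, 2610 genes passed as reported, 913 in the fit of the hearts compared and 474 with the pan-endothelial covariate. In STING-/-+CDDP against CDDP the count was 168 as reported, 662 with the median of ratios, 671 with quantile normalization and 12 without a filter, and in STING-/-+CDDP against STING-/- it was 129, 245, 297 and 46. Higher genes were 50 of 168 and 35 of 129 of these, but 279 of 662 and 115 of 245 after rescaling by the median of ratios, and 1006 of 2740 against 1887 of 3879 for averaged cisplatin. A replicate number shared between groups does not mark a shared animal, and deviations of same-numbered hearts from the group means correlated between -0.33 and 0.26 over 18 pairs. With the replicate number as a replicate block, 3 of the 10 genes passed in CDDP against Saline and 2 in averaged cisplatin. With the pan-endothelial covariate, 0 genes passed in CDDP against Saline in the VEGF, angiopoietin and Tie, activation, nitric oxide, junction and mural lists. That covariate did not overlap between Saline and CDDP hearts, so the fit separates it poorly from cisplatin. With 3 hearts a group and no read counts, precision is that of the intervals given, which were widest for Selp.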

Other observations

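Lymphatic endothelium held a gene that stood out. Ccl21a, a chemokine that guides dendritic cells and T cells into lymph vessels, had 40.8, 53.5 and 33.0 TPM in Saline hearts and 5.72, 5.52 and 9.14 TPM in CDDP hearts (log2 fold change -2.48 ± 0.28, adjusted p = 0.000715, limma). It had 28.4, 34.8 and 21.2 TPM in STING-/-+CDDP hearts, above all CDDP hearts (1.91 ± 0.28, adjusted p = 0.0188). This last call was lost without STING-/-+CDDP heart 1 and without STING-/-+CDDP heart 2. Its interaction of 1.71 ± 0.40 did not pass (adjusted p = 0.286). Mouse genomes hold near-identical copies of this gene, so its reads may be shared with them. Reln, a secreted protein of lymphatic endothelium, was higher in CDDP than in Saline hearts (1.02 ± 0.33, adjusted p = 0.0488), a call that ended without CDDP heart 1 and in most other fits with 1 heart left out. The other 6 of 8 lymphatic genes, Prox1, Flt4 and Lyve1 among them, did not pass.

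The genes closest in pattern to the mean of Pecam1, Cdh5, Kdr, Tek and Tie1 over the 12 hearts were Ehd2 (r = 0.96), Erg (r = 0.95), Chst7 (r = 0.95), Vsir (r = 0.95) and Ggta1 (r = 0.95). Erg is an ETS factor of endothelium. The genes closest to Vcam1 were Mcfd2 (r = 0.96), Tgfbi (r = 0.96), Tle3 (r = 0.95), Cemip2 (r = 0.95) and F2r (r = 0.95). Vcam1 and Plvap had an r of 0.82 over the 12 hearts and of 0.90 after the group means were removed. The named genes are the highest of the genes tested that are not among the 10. The points are hearts in 4 groups whose atrial sums ran from 317 to 39396 TPM, and the values are descriptions.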
